A study of Mus musculus with 8 samples.

Results

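The replication-dependent histone genes of the mouse were followed through 8 RNA libraries, 4 of liver and 4 of colon. The members were taken by gene symbol: H1f1 to H1f5, and every symbol that starts with H2ac, H2bc, H3c or H4c and a digit. Older names of the Hist1h to Hist4h form were accepted too, but only current symbols were matched, not synonyms. This gave 63 of the 45777 genes in the table. They comprise 5 genes for the linker histone H1 and, for the nucleosome core, 18 for H2A, 16 for H2B, 12 for H3 and 12 for H4. No expression value was used to choose them. The study used a mouse model of NASH, the inflamed form of fatty liver disease, and asked what extracellular vesicles (EVs) from bovine colostrum, the first milk, do in it. In each tissue there was 1 NASH library, 1 library of an EV low dose group, 1 library of an EV high dose group and 1 control library. Strain, sex, age, the way NASH was induced, the vesicle amounts, the route and the duration are not given in the labels, nor is whether the EV groups also received the NASH treatment or whether a library pools several animals. RNA was made into stranded total RNA libraries, and the values are FPKM (fragments scaled to gene length and to the mapped fragments of the library).

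Histones are the proteins around which DNA is wrapped: H3 and H4 form the centre of the nucleosome, H2A and H2B flank it, and H1 binds the DNA that enters and leaves. Replication-dependent genes supply the histones for new chromatin during S phase, when DNA is copied. Their messages are the animal mRNAs that carry no poly(A) tail. In its place the 3′ end is a short stem-loop, which is bound by the protein SLBP and made with the help of the U7 small nuclear ribonucleoprotein. A library of total RNA keeps such messages, whereas selection on poly(A) would remove most of them. In a tissue they are therefore tied to cells that are copying DNA, such as those of the colonic crypt, while most hepatocytes of the adult liver are out of the cell cycle. A histone message that gains a poly(A) tail can persist outside S phase.

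The genes sit in clusters. By RefSeq on GRCm38.p6 (the mm10 assembly), 53 members lie on chromosome 13 within chr13:21715711-23934913 and the other 10 on chromosome 3 within chr3:96219885-96270192. RefSeq gives 5 members, all H2B genes, a span of over 1000 bases: H2bc21, H2bc22, H2bc23, H2bc4 and H2bc6, the last with 37455 bases. The spans of the rest run from 375 to 911 bases. H2ac5-ps, a pseudogene by its name, fits the symbol rule and was kept. H2ac1 (highest library 0.00877 FPKM) fell outside the line of 1 FPKM that was used to describe a member, and the member nearest to it on the inside was H2bc1 (highest library 2.65 FPKM), so 62 members were at 1 FPKM or more somewhere.

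The stem-loop is the feature that sets these messages apart, so examples are shown from each family. The search was for a first stem arm GGNNCT, the loop TTTN and a second arm AGNNCC, with nothing between them, on the transcript strand of the GENCODE vM21 models (GRCm38). N is any base, and capitals mark the match.
H1f4: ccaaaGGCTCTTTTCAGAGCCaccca
H2ac18: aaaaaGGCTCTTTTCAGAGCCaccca
H2ac20: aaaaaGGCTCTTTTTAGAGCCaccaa
H2bc8: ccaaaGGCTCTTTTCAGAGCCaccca
H3c3: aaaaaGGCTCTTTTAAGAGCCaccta
H4c3: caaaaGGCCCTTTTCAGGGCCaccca
These sites lie at chr13:23621777-23621802 (minus strand), chr3:96246027-96246052 (plus strand), chr3:96220413-96220438 (minus strand), chr13:23571838-23571863 (plus strand), chr13:23745042-23745067 (minus strand) and chr13:23698084-23698109 (minus strand), in that order. The motif was present in 40 of the 62 members that have a GENCODE transcript (64.5%) and in 89 of all 55450 genes (0.161%). It was found in 3 of 5 H1, 10 of 17 H2A, 9 of 16 H2B, 8 of 12 H3 and 10 of 12 H4 genes. The stem of H1f4, H2ac18 and H2bc8, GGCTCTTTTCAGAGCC, was the commonest with 24 genes. The form of H4c3, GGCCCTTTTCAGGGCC, occurred in 6 genes, all of them for H4, and the whole form shown by H2ac20 in that gene alone; its loop TTTT also occurs in H4c14 and H4c9. Many models end at the stop codon, so a gene without a match only lacks these letters in its annotated model.

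Promoters are shown by family, and whether their letters relate to the expression ratios was not tested. The windows run from 250 bases before to 50 bases after the RefSeq start (GRCm38.p6), 1 member is shown for each of 3 families, and capitals mark any match, on either strand, to the TATA box letters TATAA, to the box CCAAT, to the octamer ATTTGCAT or to AAACACA. Overlapping matches run together.
H1f5: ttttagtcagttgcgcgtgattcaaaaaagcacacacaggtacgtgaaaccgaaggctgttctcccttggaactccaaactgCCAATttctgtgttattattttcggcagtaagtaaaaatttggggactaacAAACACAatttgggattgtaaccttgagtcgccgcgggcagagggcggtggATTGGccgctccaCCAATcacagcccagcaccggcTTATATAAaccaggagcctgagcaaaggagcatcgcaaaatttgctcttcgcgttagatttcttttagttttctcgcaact
H2bc8: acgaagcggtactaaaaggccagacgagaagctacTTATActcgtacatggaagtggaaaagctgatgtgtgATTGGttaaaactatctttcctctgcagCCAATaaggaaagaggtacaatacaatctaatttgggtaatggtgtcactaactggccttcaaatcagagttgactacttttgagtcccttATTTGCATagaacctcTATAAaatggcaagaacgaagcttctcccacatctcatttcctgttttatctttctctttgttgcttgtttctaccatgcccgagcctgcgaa
H4c18: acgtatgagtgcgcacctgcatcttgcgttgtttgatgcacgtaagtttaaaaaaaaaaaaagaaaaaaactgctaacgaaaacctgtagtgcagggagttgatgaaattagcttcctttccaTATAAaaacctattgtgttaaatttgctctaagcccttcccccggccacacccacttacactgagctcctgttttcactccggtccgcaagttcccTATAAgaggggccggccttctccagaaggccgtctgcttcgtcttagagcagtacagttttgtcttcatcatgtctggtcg
These windows are chr13:21780576-21780875 (minus strand), chr13:23571150-23571449 (plus strand) and chr13:21832148-21832447 (minus strand). A promoter was found for 57 of the 63 members. TATAA stood in 45 of them (78.9%), against 28.0% of all 27025 promoters. CCAAT, the letters bound by the factor NF-Y, stood in 49 (86.0%), against 41.1% of all; it was in every one of the 46 promoters of H1, H2A, H2B and H3 genes, but in 3 of 11 H4 promoters. ATTTGCAT, the octamer that OCT1 binds in H2B promoters, stood in 7 of 14 H2B and 6 of 17 H2A promoters and in no H1, H3 or H4 promoter, against 1.97% of all. AAACACA, known as a box of H1 promoters, stood in 4 of 5 H1 promoters, against 8.22% of all. It also stood in 2 of 17 H2A and 2 of 14 H2B promoters, and in no H3 or H4 promoter. The windows of 18 members overlap that of another member, so these counts are not independent, and a match of letters is not a bound site.

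The libraries themselves differed. The share of FPKM taken by 5 small RNAs without poly(A) tails (Rn7sk, Rn7s1, Rn7s2, Rmrp and Rpph1) was 49.7% to 54.9% over all 8 libraries. The liver control library stood apart: 10469 genes reached 1 FPKM there, against 12420 in liver NASH, 11941 in EV low and 11894 in EV high liver. In the colon the counts were 14480, 13863, 14303 and 13993 in the same order. Hepatocyte markers marked the liver, where the intestinal factors Cdx1 and Cdx2 were listed at 0, and colon epithelial markers marked the colon (summed over their list, 4232 to 4909 FPKM in colon and 5.18 to 6.67 FPKM in liver). With 1 library per group no test was possible. A gene is called higher or lower here when its FPKM + 1 differed at least 2-fold after the median gene of that tissue was set to no difference, among genes kept at 1 FPKM or more in at least 1 of the tissue's 4 libraries. The median gene's log2 ratio, which was subtracted, was 0.55 in liver NASH over control, -0.14 and -0.13 in liver EV low and EV high over NASH, and 0.39 and 0.38 in liver EV low and EV high over control. In the colon comparisons used here it lay between -0.06 (EV low over NASH) and 0.07 (EV high over control).

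Histone messages were far more abundant in colon than in liver. All members together came to 5197 FPKM in NASH, 6472 in EV low, 6011 in EV high and 10832 in control colon, against 1584, 1568, 1613 and 1427 FPKM in the matching livers. The colon level was 3.28 times that of the liver in NASH, 4.13 times in EV low, 3.73 times in EV high and 7.59 times in control mice. Of the 62 members at 1 FPKM or more in any library, 59 were at least 2-fold higher in colon than in liver in NASH (25.1% of all genes kept were), 61 in EV low (26.7%), 60 in EV high (30.2%) and 62 in control mice (41.8%). These ratios were taken between libraries of different tissues, whose other RNAs differ, so they compare shares of the RNA.

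**Figure D1:**
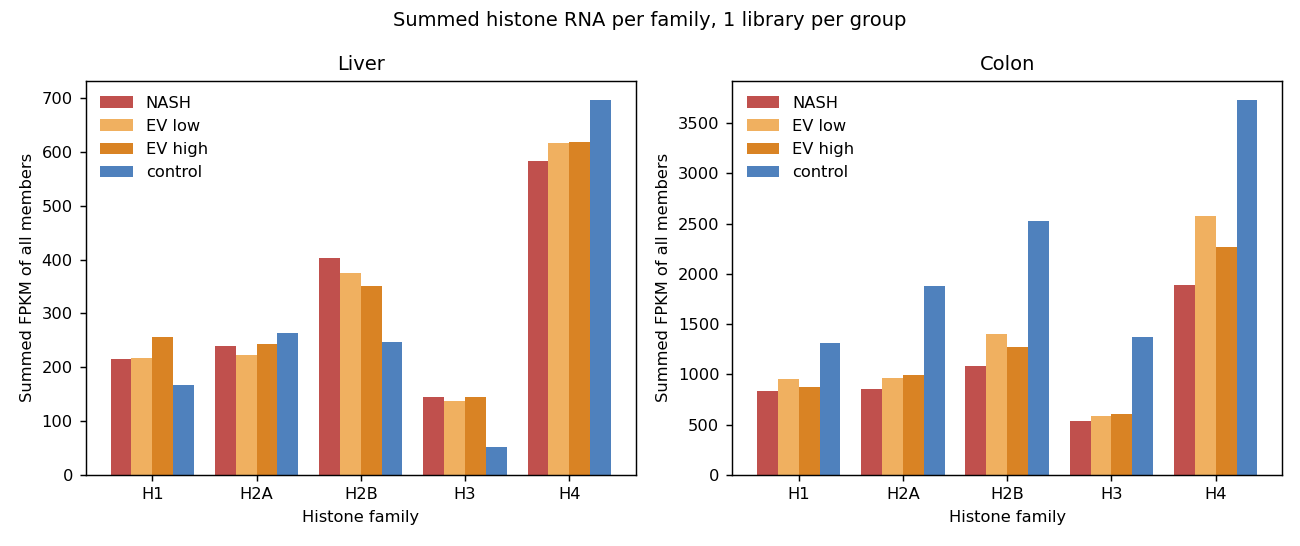
Summed FPKM of the members of each family in liver and colon; each bar is 1 library, so there are no error bars, and the panels have their own scales. The control colon is highest in every family (H4: 3733 FPKM), whereas in liver control is lowest for H1, H2B and H3 (51.2 FPKM) and highest for H2A and H4 (697 FPKM).

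In the control colon the members were high nearly throughout. There 42 members reached 100 FPKM, against 15 in NASH, 20 in EV low and 18 in EV high colon; the median member had 54.1 FPKM in NASH, 61.6 in EV low, 63.6 in EV high and 141 in control colon. The same measure in liver was 13.7 in NASH, 12.6 in EV low, 12.6 in EV high and 4.02 FPKM in control liver. Thus the control library held the highest median of the 4 in colon and the lowest of the 4 in liver. The 10 most abundant members carried 54.1% of the histone FPKM in NASH, 54.8% in both EV groups and 75.8% in control liver; in colon they carried 48.9%, 49.8%, 47.8% and 41.1% in the same order. The control liver therefore had its histone RNA in fewer genes.

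**Figure D2:**
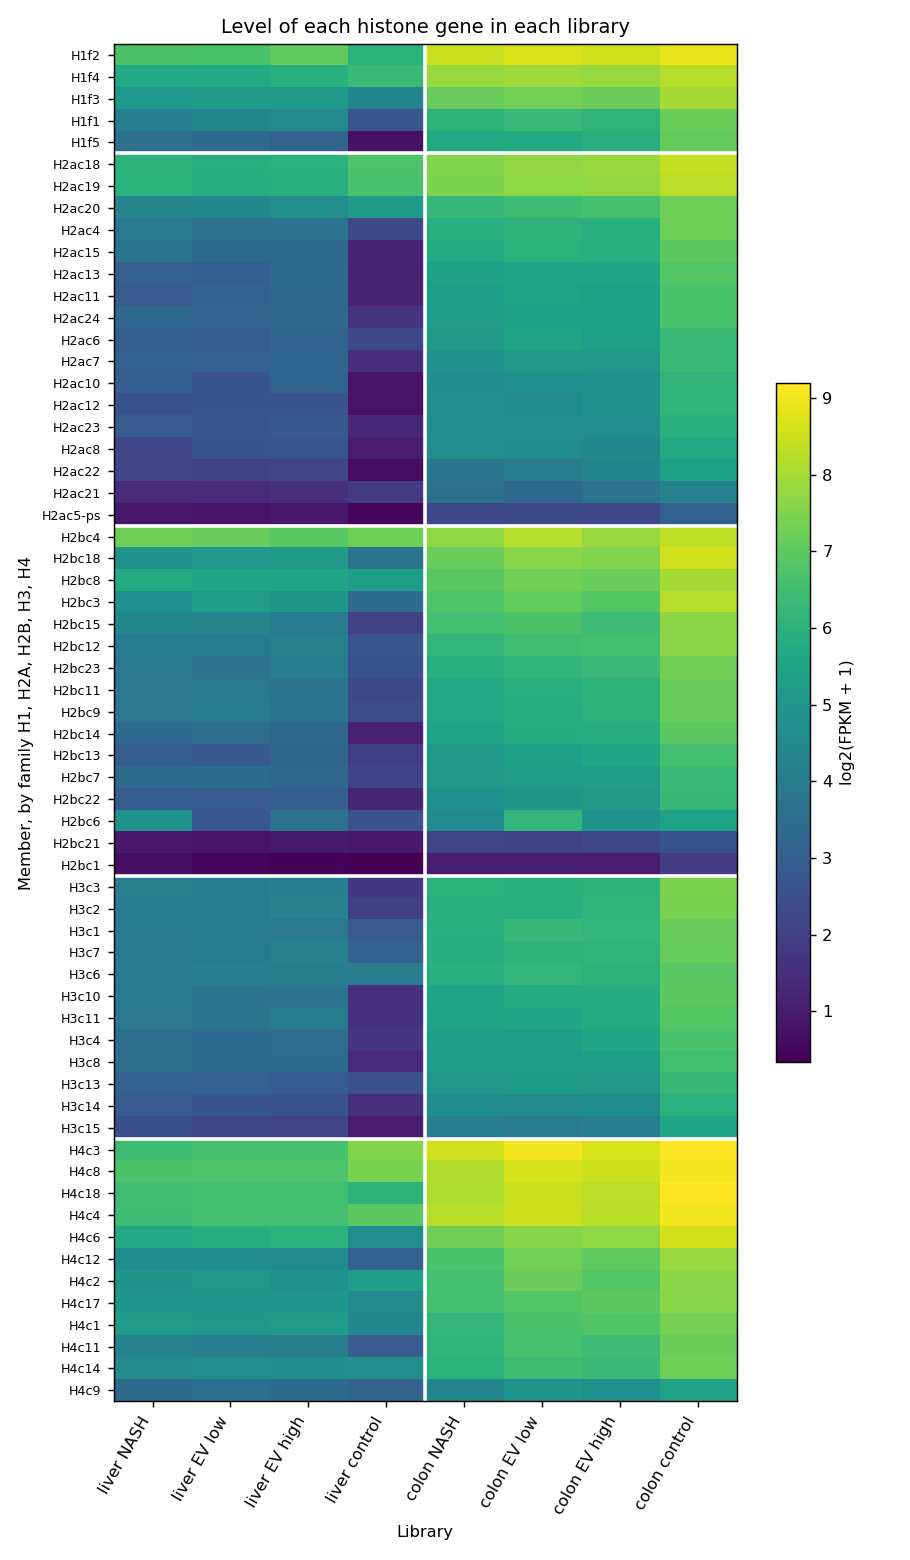
Colour shows log2(FPKM + 1) of each member (rows, grouped by family) in each library (columns, liver then colon, in the order NASH, EV low, EV high and control). Most H2A, H2B and H3 rows are darkest in control liver, and the control colon is the highest of the 4 colons for every member but H2bc6; H2ac1, under 1 FPKM, is not drawn.

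In the liver, NASH and control differed in the make-up of the histone RNA more than in its amount. The sum over all members was 1584 FPKM in NASH and 1427 FPKM in control liver, 1.11 times as deposited; relative to the median gene its log2 ratio was -0.40. Yet 21 of the 59 kept members were higher, against 7.21% of all genes kept, and 8 were lower, against 7.66%; 30 were within 2-fold. The median member was 0.78 higher on the log2 scale, against 0 for all genes, so median and sum have opposite signs. Without centring, 35 members were higher, against 20.5% of all genes, and 1 lower, against 3.23%.

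H3 genes had the largest ratio of sums among the 5 families. They summed to 145 FPKM in NASH and 51.2 FPKM in control liver, 2.83 times as much, and made up 9.14% of the histone FPKM in NASH against 3.59% in control. Of 12 H3 genes, 6 were higher, against 7.21% of all genes kept, and 0 lower, against 7.66%. Their median log2 ratio was 1.08. H3c3 had 17.4 FPKM in NASH, 15.4 in EV low, 16.7 in EV high and 2.45 in control liver, a NASH over control log2 ratio of 1.86. H3c10 had 13.97, 12.4, 12.03 and 1.91 FPKM in the same order (1.81). For both genes the control library was far below the other 3 livers, which lay close together. H3c6, whose RefSeq span is the longest of the H3 genes, had 14.96, 16.6, 15.9 and 15.8 FPKM (-0.63), and H3c7 14.3, 14.5, 17.5 and 7.81 FPKM.

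The linker histone H1 was split. H1f5 gave the largest ratio of any member: 11.2 FPKM in NASH, 9.30 in EV low, 7.83 in EV high and 0.663 in control liver, a log2 ratio of 2.32. H1f4 was lower in NASH, with 52.6 FPKM in NASH, 52.8 in EV low, 61.1 in EV high and 79.9 in control liver (-1.15). H1f2, the H1 gene with the highest mean over the 4 livers, had 104 FPKM in NASH, 101 in EV low, 130 in EV high and 62.5 in control liver. The 5 genes shared a sum of 215 FPKM in NASH and 168 FPKM in control liver. The median H1 gene shares 2.21% of its 50-base words with another member, but H1f4 shares 29.6%, mostly with H2bc6.

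H2A calls differed between the genes of chromosome 3 and those of chromosome 13. H2A as a family summed to 239 FPKM in NASH and 263 FPKM in control liver, and of 16 kept genes 9 were higher and 4 lower. Among all genes kept, 7.21% were higher and 7.66% lower. The 4 lower genes were H2ac18, H2ac19, H2ac20 and H2ac21, all on chromosome 3. Without centring only 1 member of any family was lower, H4c3, so these 4 calls rest on the centring. H2ac18 had 66.3 FPKM in NASH, 60.4 in EV low, 63.2 in EV high and 106 in control liver (-1.22), and H2ac19 62.5, 57.1, 59.6 and 100 FPKM (-1.23). H2ac19 shares every one of its 50-base words with H2ac18, so how reads were split between the pair is uncertain. H2ac20, whose stem-loop is shown above, had 19.4, 20.7, 25.3 and 33.8 FPKM (-1.32). On chromosome 13 H2ac15 had 12.5 FPKM in NASH, 8.82 in EV low, 8.88 in EV high and 1.255 in control liver (2.03). H2ac6 (0.18), H2ac8 (0.68) and H2ac23 (0.98), also on chromosome 13, were within 2-fold. Over all families, 0 of 9 kept members on chromosome 3 were higher and 4 lower (median -0.72), whereas 21 of 50 on chromosome 13 were higher and 4 lower (median 0.83). The 4 lower on chromosome 3 were the H2A genes named above. The other kept members there were within 2-fold: H2bc18 (0.54), H3c13 (0.02), H3c14 (0.81), H3c15 (0.91) and H4c14 (-0.72).

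H2B genes, the partners of H2A, leaned one way. They summed to 402 FPKM in NASH and 248 FPKM in control liver. Of 14 kept genes 4 were higher, against 7.21% of all genes kept, and 0 lower, against 7.66%. H2bc15, a neighbour of H2ac15, had 20.5 FPKM in NASH, 19.5 in EV low, 15.1 in EV high and 3.16 in control liver (1.82). The most abundant H2B gene, H2bc4, had 154, 142, 121 and 151 FPKM (-0.52), and H2bc8 54.6, 49.4, 45.4 and 37.6 FPKM. Those abundant genes were within 2-fold, while the higher calls were of genes that were rare in control liver.

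H4 was the family with the lowest median. Its 12 genes summed to 583 FPKM in NASH and 697 FPKM in control liver, 36.8% of the histone FPKM in NASH against 48.8% in control. Only H4c12 was higher, at 1.01 just over the 2-fold line, and 3 genes were lower, with a median log2 ratio of -0.22. Among all genes kept, 7.21% were higher and 7.66% lower, so the count of higher H4 genes was near that share. H4c3 had 84.9 FPKM in NASH, 97.5 in each of EV low and EV high and 185 in control liver, where it was the most abundant member (-1.67, the lowest ratio of any member). H4c8 had 104 FPKM in NASH, 108 in EV low, 107 in EV high and 170 in control liver (-1.26). The control library was again the one apart, this time on the high side. H4c18 had 88.0, 92.5, 91.0 and 65.3 FPKM. The direction rests on the scaling: as a share of all FPKM in the table, H4 took 0.0746% in NASH and 0.0683% in control liver and H2A 0.0306% and 0.0258%, and no member was called lower when libraries were set to an equal sum. H4 genes are known for coding nearly the same protein, and a median of 39.9% of their 50-base words recurs in another member.

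**Figure D3:**
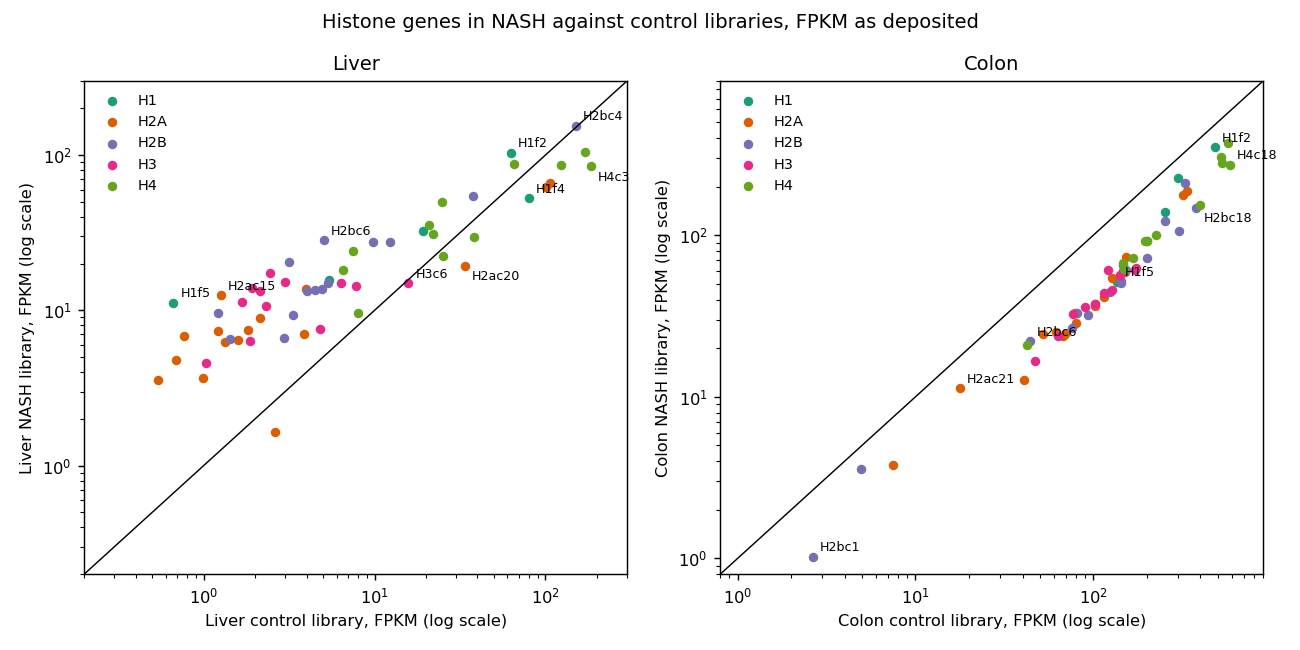
FPKM of each member in the NASH library (vertical) against the control library (horizontal) of liver and colon, both axes on a log scale and as deposited; the line marks equal values. In liver points lie on both sides of the line, with H1f5 (11.2 against 0.663 FPKM) above it and H4c3 (84.9 against 185 FPKM) below it, while in colon every member drawn lies below it.

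Genes of the S phase and cell cycle and of some cell types also differed between the NASH and control livers. Of 39 kept S phase and cell cycle genes, 20 were higher in NASH and 0 lower, with a median log2 ratio of 1.16. Among all genes kept, 7.21% were higher and 7.66% lower. Mcm6, a subunit of the replicative helicase, had 14.5 FPKM in NASH, 15.1 in EV low, 13.3 in EV high and 0.743 in control liver (2.59). Mcm5 (2.36), Mcm2 (1.99) and Uhrf1 (2.13), which keeps DNA methylation through replication, were higher too. Macrophage markers were higher in 5 of 5 cases (summed, 215 FPKM in NASH against 36.5 in control liver) and neutrophil markers in 3 of 3 (63.4 against 4.35 FPKM). Hepatocyte markers were lower in 4 of 6 cases (median -1.57) and erythroid markers in 5 of 5 (median -1.30). T cell markers summed to 2.39 FPKM in NASH and 0.902 in control and those of B and plasma cells to 2.43 and 1.87 FPKM. These are sums of low values: 0 of 6 T cell markers and 1 of 5 B and plasma cell markers reached 1 FPKM in any liver library. In bulk tissue, fewer cells of a type and less RNA per cell cannot be told apart, and the part of these cell types in the histone values was not tested.

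The lists of histone machinery held few calls, to be read against 7.21% higher and 7.66% lower among all genes kept. Of 22 kept histone chaperones, importers and acetyl carriers, 1 was higher and 0 lower (median 0.28): Chaf1b, a subunit of chromatin assembly factor CAF-1, had 3.11 FPKM in NASH, 2.68 in EV low, 2.69 in EV high and 0.241 in control liver (1.17). The next were Ipo4 (0.96), an importer of H3 and H4, Mms22l (0.89) and the co-chaperone Dnajc9 (0.87). Of 21 genes for histone mRNA processing, 0 were higher and 1 lower (median -0.05), namely Lsm10 (-1.23), a protein of the U7 particle, with 6.32, 6.46, 7.07 and 10.7 FPKM. Slbp itself had 10.03 FPKM in NASH, 9.16 in EV low, 11.2 in EV high and 5.68 in control liver (0.17). The Sm proteins Snrpg (-0.86) and Snrpe (-0.63) and the cleavage factor Cstf2 (0.44) were within 2-fold. Of 9 replication-independent histones, which need no S phase, 0 were higher and 1 lower (median 0.01): H2aj (-1.14), followed by H2az2 (-0.86), H1f0 (-0.63) and the DNA damage variant H2ax (0.57). Of 10 other small RNAs without poly(A) tails 0 were higher and 4 lower (median -0.85), with Terc, the telomerase RNA, at -1.44, Rn7sk at -1.28, Rn7s1 at -1.10 and Rn7s2 at -1.09. As deposited, the median of these small RNAs was -0.30. Among the histone members 8 were lower and 21 higher relative to the median gene. The part of RNA recovery in the histone values was not tested.

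In the colon, NASH had less histone RNA than control throughout the set. The sum was 5197 FPKM in NASH and 10832 FPKM in control colon, 0.480 times, a log2 ratio of -1.12 against the median gene. Of 62 kept members, 49 were lower, against 2.26% of all genes kept, 0 were higher, against 2.12%, and 13 were within 2-fold. All 62 had a ratio below 0, with a median of -1.31 and a range from -1.66 (H2ac22) to -0.45 (H2bc21). Histones took 1.52% of the protein-coding FPKM in NASH, 1.65% in EV low, 1.67% in EV high and 2.94% in control colon.

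Every family took part, with counts to be read against 2.26% lower among all genes kept. H3 summed to 537 FPKM in NASH and 1376 FPKM in control colon and 12 of 12 genes were lower; H3c2 had 60.7 FPKM in NASH, 58.9 in EV low, 68.1 in EV high and 171 in control colon (-1.54), and H3c3 62.4, 61.6, 64.6 and 173 FPKM (-1.52). H2B summed to 1079 and 2527 FPKM and 13 of 16 were lower; H2bc3 had 106 FPKM in NASH, 135 in EV low, 115 in EV high and 304 in control colon (-1.57), and H2bc13 32.2, 40.3, 48.5 and 93.5 FPKM (-1.57). In both families the control colon was well above the 3 others. H2bc18, the most abundant H2B gene of the control colon, had 148 FPKM in NASH, 194 in EV low, 184 in EV high and 379 in control. H2bc22 had 26.6, 31.4, 33.6 and 75.9 FPKM (-1.54).

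H2A summed to 855 FPKM in NASH and 1879 FPKM in control colon, and 13 of 17 genes were lower. H2ac22 had 12.7 FPKM in NASH, 15.9 in EV low, 19.2 in EV high and 40.7 in control colon (-1.66), and H2ac10 23.8, 26.4, 28.5 and 68.0 FPKM (-1.54). The chromosome 3 pair was within 2-fold: H2ac18 had 188, 217, 225 and 337 FPKM, and H2ac19 177, 205, 213 and 318 FPKM. H4 summed to 1892 FPKM in NASH and 3733 FPKM in control colon, and 9 of 12 genes were lower. H4c3 had 373 FPKM in NASH, 524 in EV low, 416 in EV high and 572 in control colon, and H4c8 282, 408, 361 and 528 FPKM. As deposited, EV low lay nearer to control than to NASH for H4c3 and about midway for H4c8, in contrast to the H3 genes above. How other scalings move these single genes was not tested.

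H1 was the family least apart, at 834 FPKM in NASH and 1317 FPKM in control colon, with 2 of 5 genes lower. H1f2 had 351 FPKM in NASH, 421 in EV low, 374 in EV high and 481 in control colon (-0.52), and H1f4 227, 239, 226 and 299 FPKM (-0.46). H1f5 differed more, with 51.6, 52.7, 59.9 and 137 FPKM (-1.45). H1f5 was thus the H1 gene with the largest difference in either tissue, higher in NASH liver and lower in NASH colon.

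**Figure D4:**
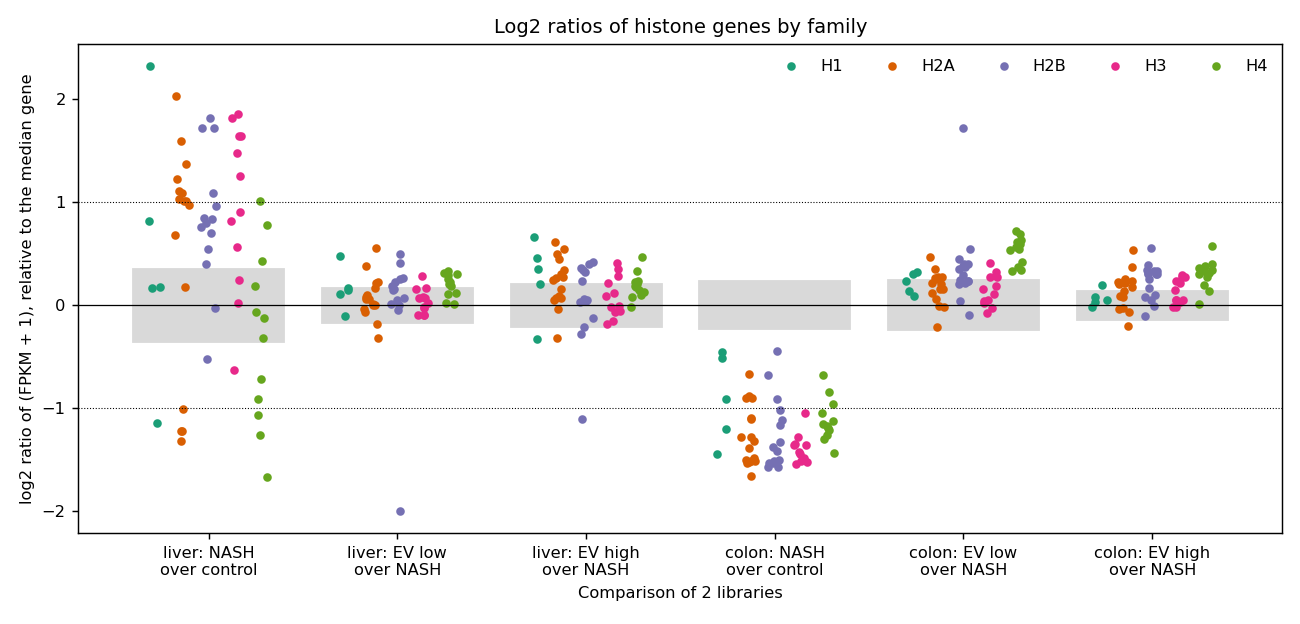
Log2 ratio of FPKM + 1, less the median gene of the tissue, for each kept member (points) by family in each comparison, with dotted lines at 2-fold and grey boxes for the middle 50% of all kept genes. In colon NASH over control all 62 points are below 0, in liver they run from -1.67 to 2.32, and H2bc6 is the point furthest from 0 in both liver EV comparisons and in colon EV low over NASH.

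Cell cycle genes of the colon were lower in part. Of 39 S phase and cell cycle genes 0 were higher in NASH and 7 lower (median -0.30), against 2.12% and 2.26% of all genes kept. Ccnb1, the mitotic cyclin B1, had 4.72 FPKM in NASH, 3.77 in EV low, 4.90 in EV high and 13.2 in control colon (-1.37), and Top2a 10.2, 9.54, 10.9 and 25.7 FPKM (-1.32). Cdk1 (-1.36), Ccna2 (-1.22), Tk1 (-1.17), E2f2 (-1.16) and Ccnb2 (-1.07) were lower as well, while Mki67 (-0.72), Mcm2 (0.02) and Mcm6 (0.07) were within 2-fold. Of 10 replication-independent histones 0 were higher and 1 lower (median -0.31): Cenpa, the H3 of the centromere, had 4.75, 3.42, 4.22 and 10.1 FPKM (-1.01). H2ax, whose message also has a stem-loop form, had 17.8 FPKM in NASH, 15.2 in EV low, 16.7 in EV high and 32.6 in control colon (-0.90), followed by H2az1 (-0.74) and H1f0 (-0.67).

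None of the 23 chaperones (median -0.10) or 22 processing genes (median -0.14) was called in either direction in colon. The largest chaperone ratios were those of Asf1b (-0.95), Chaf1b (-0.64), Supt6 (0.40) and Cabin1 (0.32), and the largest of processing genes those of Snrpg (-0.63), Snrpe (-0.56), Upf1 (0.43), which takes part in the decay of histone mRNA, and Slbp (-0.41). Slbp had 19.8 FPKM in NASH, 27.5 in EV low, 21.8 in EV high and 25.4 in control colon. Of 11 small RNAs 0 were higher and 1 lower, Rny3 at -1.12 (median -0.32). None of 7 colon epithelial markers was called in either direction (median 0.33); B and plasma cell markers summed to 179 FPKM in NASH, 431 in EV low, 316 in EV high and 325 in control colon. The part of cell composition and of RNA recovery in the colon histone values was not tested.

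**Figure D5:**
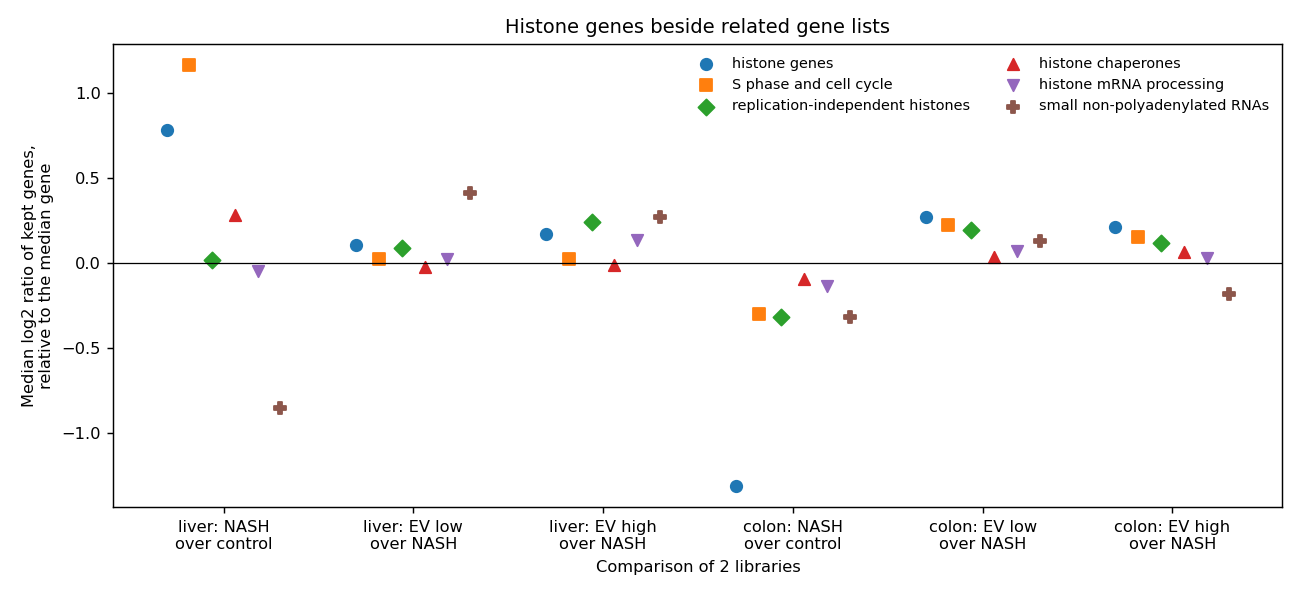
Median log2 ratio of the kept genes of each list, less the median gene, in each comparison of liver and colon; each symbol is 1 list of genes. Of the 6 lists plotted, S phase and cell cycle has the highest median in liver NASH over control at 1.16, followed by histones at 0.78. In colon the histone median of -1.31 is the lowest of those plotted.

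The EV libraries of the liver differed little from NASH. In EV low over NASH, 0 of 59 members were higher, against 0.443% of all genes kept, and 1 lower, against 0.225%; the median member was 0.10 and the sum 0.12. In EV high over NASH, 0 were higher (0.816% of all genes) and 1 lower (0.373%), with a median of 0.17 and a summed ratio of 0.16. The lower gene was H2bc6 in both, with 5.63 FPKM in EV low, 11.4 in EV high, 28.2 in NASH and 5.06 in control liver, a ratio of -2.0 for EV low and -1.10 for EV high. Its NASH library was the one apart from the other 3. Both ratios share the NASH library. Set against the control library, which is likewise shared, 24 members were higher and 5 lower in EV low (6.5% and 5.69% of all genes) and 27 higher and 4 lower in EV high (6.28% and 5.14%). S phase and cell cycle genes had 0 calls in either direction in both EV doses over NASH, with medians of 0.03 in EV low and 0.02 in EV high. Of 3 neutrophil markers 2 were lower in each EV group, with sums of 19.1 FPKM in EV low, 19.8 in EV high and 63.4 in NASH.

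In the colon the EV libraries lay well below control and, as deposited, slightly above NASH. The members summed to 6472 FPKM in EV low and 6011 in EV high, against 5197 FPKM in NASH, which gives log2 ratios of 0.38 and 0.19 relative to the median gene. In EV low over NASH, 56 of 62 members had a ratio above 0 (median 0.27), but only 1 was higher, against 1.06% of all genes, and 0 lower, against 1.61%. With libraries set to an equal sum this median was 0.05, and with an equal protein-coding sum 0.01, so the shift depends on the scaling. In EV high over NASH, 53 were above 0 (median 0.21), with 0 higher (1.08% of all genes) and 0 lower (1.48%). Against control, 0 members were higher and 32 lower in EV low (1.15% and 1.73% of all genes), and 0 higher and 36 lower in EV high (1.12% and 1.59%). H4 had the largest family median in EV low over NASH at 0.55, against 0.13 for H3; H4c2 had 145 FPKM in EV low, 112 in EV high, 91.5 in NASH and 202 in control colon. S phase and cell cycle genes had medians of 0.22 in EV low and 0.15 in EV high over NASH, with 0 calls in either direction. In EV high over NASH 4 of 5 erythroid markers were lower.

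The gene called in EV low colon was again H2bc6, with 72.3 FPKM in EV low, 27.9 in EV high, 22.2 in NASH and 44.0 in control colon, a ratio of 1.72 over NASH. In colon it was the member for which control was not the highest library, EV low being highest; in liver NASH was highest, as it was for the H2B and H3 sums. H2bc6 has the longest RefSeq span of the members, and RefSeq gives it more than 1 start. Its shortest GENCODE transcript shares 19.6% of its 50-base words with H1f4. Which of its transcripts the reads came from was not tested, so setting its values beside those of the compact genes is uncertain. H2bc6 was still counted in the H2B sums and among the called members. For H2bc21, H2bc22, H2bc23 and H2bc4, which also have long RefSeq spans, the source of the reads was not tested either.

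Values differed among 4 histone genes whose current symbols fall outside the rule. Older names held as synonyms were not matched, so a gene with only such a name was not counted as a member. H4f16, an H4 gene, had 11.6 FPKM in NASH, 13.9 in EV low, 18.9 in EV high and 28.0 in control liver (-1.75 in NASH over control) and 78.0, 124, 121 and 169 FPKM in the matching colons (-1.17). H2aw, an H2A gene, had 11.2 FPKM in NASH, 4.67 in EV low, 11.8 in EV high and 4.23 in control liver (0.67) and 26.8, 41.8, 55.9 and 49.8 FPKM in the matching colons (-0.93). Over NASH it was at -0.97 in EV low liver and at 1.02 in EV high colon, a comparison in which 0 members were called. H2bu2 was at 0.99 in EV high over NASH in liver, at 0.991 FPKM in EV high and 0.0993 in NASH, and H1f6 stayed under 1 FPKM in all 8 libraries. Near-identical copies limit single members throughout: over all members a median of 49.6% of 50-base words recurs in another member, 78.9% in H2A, 57.2% in H3, 44.9% in H2B, 39.9% in H4 and 2.21% in H1. Sums over a family are not free of this limit, because FPKM is scaled to gene length and the members differ in length. Some words also recur in another family, as between H1f4 and H2bc6.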

How the data were processed

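The authors deposited FPKM in a single table, with 1 column for each of 8 libraries (1 per group and tissue) and 45777 gene identifiers, of which 45679 were matched to symbols of GRCm38.p6 and 98 were not. Per the labels' protocols, extraction used TRIzol followed by RNeasy Plus columns, and the library chemistry was TruSeq Stranded Total RNA Gold. Listed in the submitters' processing notes are mm10, StringTie, HISAT2 and Trimmomatic 0.38. How reads that map to several histone genes were handled, other settings and the depth were not given in the sources used here. Read numbers were not recovered from the FPKM steps: in liver NASH over control the commonest ratio of low values, 1.47, was shared by 21 of 1051 genes.

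Groups came from the sample titles. Ratios were log2 of FPKM + 1, less the median of genes at 1 FPKM or more in at least 1 of the tissue's 4 libraries (12866 genes in liver, 15245 in colon). The pseudocount understates ratios of genes near or under 1 FPKM. Calls were made at 2-fold; with 1 library per group there was no test, p or error. Sums used all 63 members with no pseudocount. The members, the gene lists and the motifs were chosen with earlier results of these data known. Named genes were the 2 most abundant members per family and tissue, up to 6 members at each end of a comparison among those called, and up to 4 genes per list with the largest NASH over control ratio; other members named in the text were chosen after their values were seen. Alternatives were another pseudocount, filter, scaling or reference library. The scripts (Python 3.11.15, pandas 2.3.3, numpy 2.4.6) were tested on simulated data. Sequences were read from GENCODE vM21 and RefSeq tables.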

Additional observations from a re-analysis of the deposited data

Results flagged for a closer look

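In NASH over control 21 members were at least 2-fold higher in liver and at least 2-fold lower in colon, which is every member called higher in liver. In colon 49 of 62 kept members were lower, so a large overlap follows from that count alone. Among all genes kept, 7.21% were higher in liver and 2.26% were lower in colon. The share of all genes that did both was not counted. With 1 library per group the difference between tissues was not tested. For the 10 of them that the naming rule picked, values follow. The log2 ratio was 2.32 in liver and -1.45 in colon for H1f5, 1.86 and -1.52 for H3c3, 1.48 and -1.54 for H3c2, and 1.81 and -1.52 for H3c10. Among H2A genes it was 2.03 in liver and -1.28 in colon for H2ac15, 1.01 and -1.66 for H2ac22, and 1.59 and -1.54 for H2ac10. Among H2B genes it was 1.72 in liver and -1.02 in colon for H2bc6, 1.82 and -1.17 for H2bc15, and 1.09 and -1.54 for H2bc22. All 21 lie on chromosome 13, as do 50 of the 59 members kept in liver. By family they are 1 H1, 9 H2A, 4 H2B, 6 H3 and 1 H4 gene. In EV low over NASH, H2bc6 was the sole such gene, at -2.0 in liver and 1.72 in colon.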

How the results depend on the processing

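Each group had 1 library per tissue, so leaving out a replicate was not possible. No paired analysis was possible because the labels give no replicate numbers. In liver NASH over control, pseudocount, scaling and centring decided the counts. The 21 members higher became 8 with a pseudocount of 5 FPKM, 35 without a filter and 35 as deposited. They became 42 with every library brought to an equal sum. With the same protein-coding sum, a scaling chosen after seeing the data, they became 37. Without the filter the median gene was taken over all genes of the table, so that setting also changed the centring. The 8 lower members became 1 with a pseudocount of 5, 1 without a filter, 1 as deposited, and 0 under both sum scalings. The median of 0.78 became 1.248 without a filter, 1.33 as deposited, 1.65 at the same sum and 1.53 at the same protein-coding sum, and the summed ratio of -0.40 became 0.54 and 0.37 under the sum scalings. The direction of the liver sum therefore rests on the scaling. In colon the summed ratio of -1.12 became -0.93 at the same sum and -0.95 at the same protein-coding sum. With a pseudocount of 5 FPKM the 1 lower member of liver EV high over NASH became 0. With control in place of NASH, liver EV low had 24 members higher, 5 lower and a median of 0.84, and liver EV high 27, 4 and 0.92. In colon EV low had 0 higher, 32 lower, a median of -1.04 and a summed ratio of -0.74, and EV high 36 lower, a median of -1.12 and a summed ratio of -0.92. A filter at 5 FPKM, a pseudocount of 0.1 FPKM and median-of-ratios scaling moved none of these results past 1.5-fold. The read depth is unknown, so low values carry an unknown counting error.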
